A study of Mus musculus with 6 samples.

Results

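Slc2a1, Slc2a3, Pfkfb3, Pfkfb4, Pdk1, Egln1, Egln3, Bnip3, P4ha1 and Vegfa are hypoxia-type metabolic target genes, that is, genes known to be switched on by the hypoxia-inducible factors (HIF). The 10 genes were selected on their names, out of 54532 genes in the count table, at a time when their counts and fold changes in the libraries described here were already known, so their values are a description of these libraries and carry no test. RNA sequencing was done on CD4+ T cells that had been taken from spleens of male C57BL/6 mice by magnetic-bead negative selection and polarized into Th1 cells with plate-bound anti-CD3e, anti-CD28, IL-2, IL-12p70 and anti-IL-4. There were 3 libraries of Th1 cells cultured for 72 h, for which the series' design text gives 0.1% DMSO as vehicle, and 3 libraries of Th1 cells cultured for 72 h with 500 nM ALX-5407, which inhibits GlyT1, a transporter of glycine. The labels and the design text give 72 h, as do the study's cell culture methods and the figure legend for these cells. The study's sequencing methods give a shorter exposure, so the time with the compound is uncertain. The comparison of both groups asks how RNA levels in Th1 cultures differed with ALX-5407, and glycine transport was not measured in these libraries. The study states that viability started to fall at 500 nM and that apoptosis was higher with the compound. Oxygen was not a variable of the design, and no hypoxic culture is among these libraries.

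As background, HIF is a dimer of an alpha subunit, such as Hif1a or Epas1, and the partner Arnt. With oxygen present, prolyl hydroxylases of the Egln family mark the alpha subunit for recognition by Vhl and for degradation, and without oxygen it accumulates, enters the nucleus with Arnt and binds hypoxia response elements. Its targets raise glucose uptake and glycolysis, restrain the entry of pyruvate into mitochondria, remove mitochondria and recruit blood vessels, and Egln1 and Egln3 are themselves targets, which closes a feedback loop. In T cells, activation through the antigen receptor and mTOR can raise HIF also where oxygen is plentiful, and effector T cells rely on it for glycolysis.

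The 6 libraries held between 30801800 and 36727800 counts, so that Pfkfb4, which had the fewest counts of the 10 genes, still had at least 498 counts in each. All 10 genes passed the filter on low counts, with mean counts from 602 (Pfkfb4) to 55241 (Slc2a3). Levels are given as CPM (counts scaled to a library of 1e+06) on library sizes scaled by TMM factors, and levels of different genes are compared only as CPM per kilobase of gene length (FPKM). Slc6a9, which encodes GlyT1, had 6.97, 6.83 and 4.74 CPM in the Th1 libraries and 15.01, 15.3 and 17.1 CPM in the ALX-5407-treated libraries. Its groups did not overlap and it was higher with ALX-5407, by 1.35 on the log2 scale (standard error 0.146, adjusted p = 1.49e-06 from edgeR). Genes on the opposite strand cover 30.2% of its exon bases, but the gene that covers most, 27.8% of them, had 2 mean counts, and the only one with more, at 124 mean counts, covers 0.895%.

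Promoter sequences are shown because the genes are grouped by a shared transcription factor, whose binding element has the core letters ACGTG or GCGTG. Windows from 250 bases before to 50 bases after the start were taken from RefSeq (GRCm38.p6), and the table used here held a window for 9 of the 10 genes, all but Slc2a3. Where RefSeq held more than 1 window for a gene, the window closest to the gene's start in the count table was used. At least 1 match on either strand was present in 8 of these 9 windows, against 43.8% of all 32851 windows of the same length and 75% of windows of other HIF target genes, 68.4% of HIF pathway regulators, 65.5% of relatives and partners of the 10 genes and 62.5% of HIF-linked glycolysis genes. ACGTG occurred in 6 and GCGTG in 6 of the 9, against 19.6% and 32.4% of all windows. The windows of the 9 genes were also richer in G and C, with a median of 66.0% against 52.7% in all windows and 59.8% to 64.3% in the related lists, and both motifs hold a CG, so these shares are not matched for base composition. The window of Vegfa held no match. It was the closest of 2 windows for this gene, and bases outside the windows were not searched for any gene.

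5 windows are printed, those of Egln3, the gene that was higher with ALX-5407, of Bnip3, P4ha1 and Pfkfb3, which were lower, and of Slc2a1, whose groups overlapped. Each is written 5′ to 3′ on the strand of its gene, in lower case, with matches on either strand in capitals (CACGT and CACGC are the motifs read on the other strand). They lie at chr12:54203825-54204124 (- strand, Egln3), chr7:138909457-138909756 (- strand, Bnip3), chr10:59323046-59323345 (+ strand, P4ha1), chr2:11553880-11554179 (- strand, Pfkfb3) and chr4:119108495-119108794 (+ strand, Slc2a1). A match is a description of these letters and not a mapped binding site.
Egln3: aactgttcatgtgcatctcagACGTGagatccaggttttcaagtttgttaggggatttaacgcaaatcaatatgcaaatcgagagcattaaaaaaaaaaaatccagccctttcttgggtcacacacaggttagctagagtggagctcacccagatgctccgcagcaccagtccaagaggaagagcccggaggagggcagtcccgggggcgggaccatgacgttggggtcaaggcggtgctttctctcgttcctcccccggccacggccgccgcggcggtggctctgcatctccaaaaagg
Bnip3: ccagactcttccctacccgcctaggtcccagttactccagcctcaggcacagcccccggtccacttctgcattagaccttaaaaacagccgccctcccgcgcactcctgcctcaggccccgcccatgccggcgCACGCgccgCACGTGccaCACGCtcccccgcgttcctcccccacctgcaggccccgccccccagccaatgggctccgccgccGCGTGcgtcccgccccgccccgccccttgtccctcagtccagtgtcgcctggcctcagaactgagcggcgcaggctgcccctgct
P4ha1: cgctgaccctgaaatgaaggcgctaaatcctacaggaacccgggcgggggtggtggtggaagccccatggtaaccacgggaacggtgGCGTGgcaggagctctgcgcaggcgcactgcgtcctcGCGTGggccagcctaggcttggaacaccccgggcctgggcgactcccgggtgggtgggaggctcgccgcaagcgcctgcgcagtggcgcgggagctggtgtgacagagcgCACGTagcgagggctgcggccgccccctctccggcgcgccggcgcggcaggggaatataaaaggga
Pfkfb3: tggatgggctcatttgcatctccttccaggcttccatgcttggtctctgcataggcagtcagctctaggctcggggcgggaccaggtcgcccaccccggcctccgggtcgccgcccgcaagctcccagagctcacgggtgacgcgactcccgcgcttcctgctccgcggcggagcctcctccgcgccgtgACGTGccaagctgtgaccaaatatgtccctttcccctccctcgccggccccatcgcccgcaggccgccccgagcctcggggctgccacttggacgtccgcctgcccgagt
Slc2a1: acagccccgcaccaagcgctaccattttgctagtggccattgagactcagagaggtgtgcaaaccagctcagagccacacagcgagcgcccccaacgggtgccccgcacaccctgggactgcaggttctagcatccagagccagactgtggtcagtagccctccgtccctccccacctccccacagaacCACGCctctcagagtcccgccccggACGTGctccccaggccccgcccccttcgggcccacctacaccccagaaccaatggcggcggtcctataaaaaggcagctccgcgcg

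Bnip3 held the most matches, 5, of which 2 are the forward and reverse reading of the overlapping letters CACGTG at positions -108 and -107 from the start. P4ha1 had 3 matches, Egln1, Pdk1 and Slc2a1 had 2 each, and Egln3, Pfkfb3 and Pfkfb4 had 1 each. The match of Egln3 lay farthest from the start, at position -229, and those of Slc2a1 lay at -61 and -36. By number of matches, the 4 windows with 0 or 1 match belong to genes with log2 fold changes of -0.57, -0.50, -0.48 and 0.72, and the 5 windows with 2 to 5 matches to genes with log2 fold changes from -0.39 to 0.07. The genes with fewer matches thus had the larger differences in size; with 9 genes chosen on this contrast, nothing is read from this order.

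Across the 10 genes, Egln3 was higher in ALX-5407-treated Th1 cells, and Vegfa, Slc2a3, Pfkfb3, Pfkfb4, Bnip3 and P4ha1 were lower by 1.30-fold to 1.49-fold. Pdk1, Egln1 and Slc2a1 differed less. In the fit across all 15938 genes tested, with an adjusted p-value under 0.05 as the call, 1 of the 10 was called higher and 6 were called lower, where 24.5% of all genes tested were called higher and 23.2% lower. Counting a gene as a DEG where the absolute log2 fold change was also above 1, the study's criterion, 0 of the 10 were DEGs in edgeR, with log2 fold changes from -0.57 to 0.72, against 3.36% of all genes tested as higher and 6.68% as lower DEGs. The 2 groups of libraries did not overlap for 8 of the 10, as for 55.5% of all genes tested. Since the 10 were chosen with these differences known, nothing is read from these counts. The median log2 fold change was -0.38 over the 10 and 0.01 over all genes tested.

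**Figure D1:**
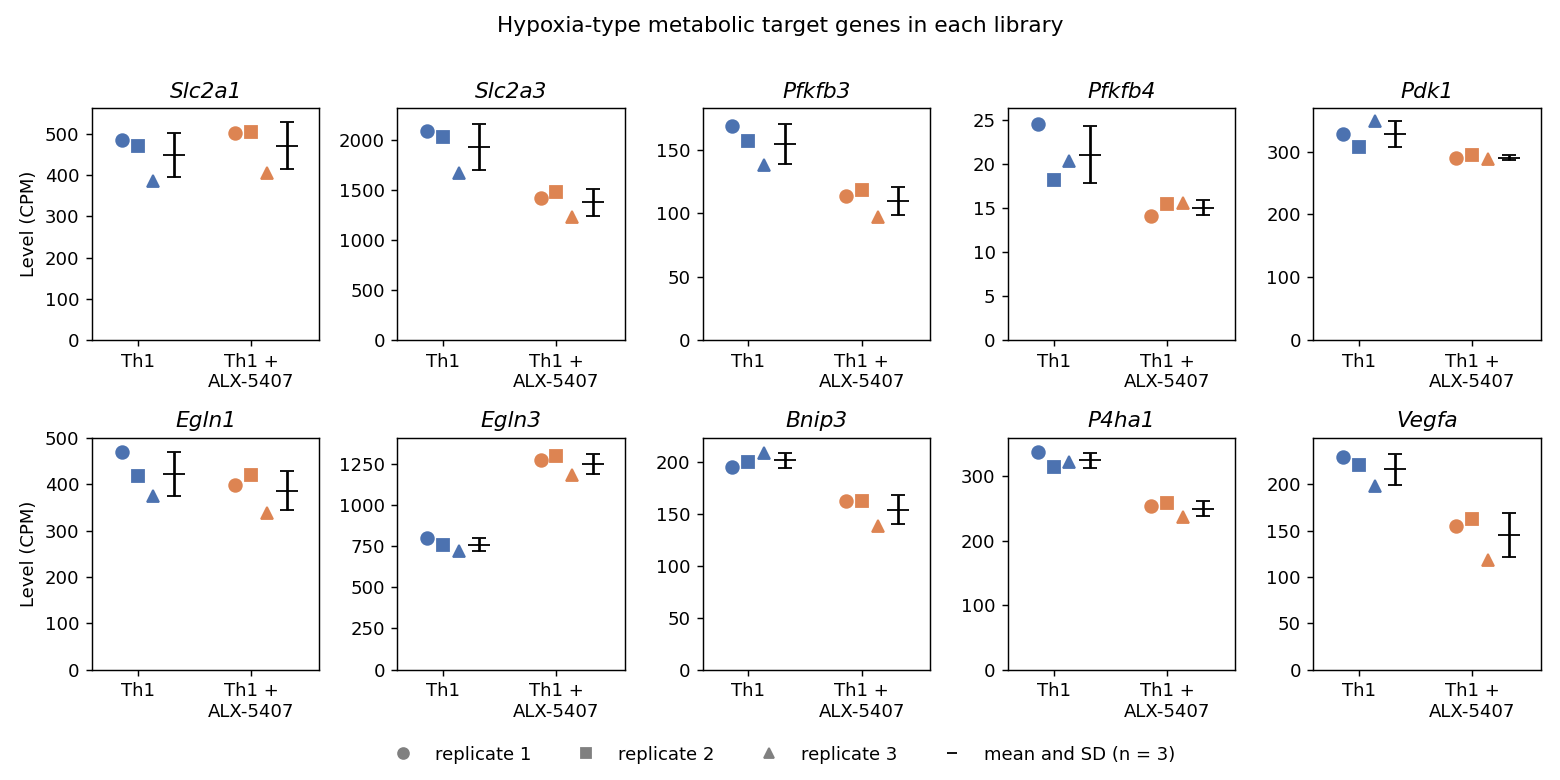
Level of each target gene in CPM (y axis from 0) in the 3 Th1 libraries (blue) and the 3 ALX-5407-treated Th1 libraries (orange). Symbols mark replicates 1 to 3, and the black bar is the mean with its SD (n = 3). Egln3 lies at 1183 CPM or more in the treated libraries and at 798 CPM or less in the Th1 libraries, and the groups overlap for Slc2a1 and Egln1.

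The 10 genes spanned a wide range of levels per length. Egln3 and Slc2a3 were the most abundant in Th1 cells, at 286 ± 14.4 and 266 ± 31.5 FPKM (SD, n = 3 each), and their ranges overlapped. Slc2a1 (128 ± 15.3 FPKM) and Egln1 (117 ± 13.2 FPKM) followed and overlapped with each other. Below them came Bnip3 at 88.8, P4ha1 at 78.9, Vegfa at 50.4, Pdk1 at 42.2, Pfkfb3 at 20.4 and Pfkfb4 at 4.31 FPKM, each apart from its neighbours in all 3 libraries. Only 0.998% of all genes tested had a higher mean FPKM than Egln3, whereas 48.9% lay above Pfkfb4. In ALX-5407-treated cells the order was the same apart from Pdk1 (37.4 ± 0.459 FPKM) and Vegfa (33.9 ± 5.54 FPKM), which changed places and overlapped. Bnip3 (67.9 ± 6.16 FPKM) and P4ha1 (60.6 ± 2.75 FPKM), which were apart in Th1 cells, overlapped there as well. By contrast, Egln3, at 470.0 ± 22.9 FPKM, did not overlap in treated cells with Slc2a3, at 189.9 ± 18.4 FPKM.

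**Figure D2:**
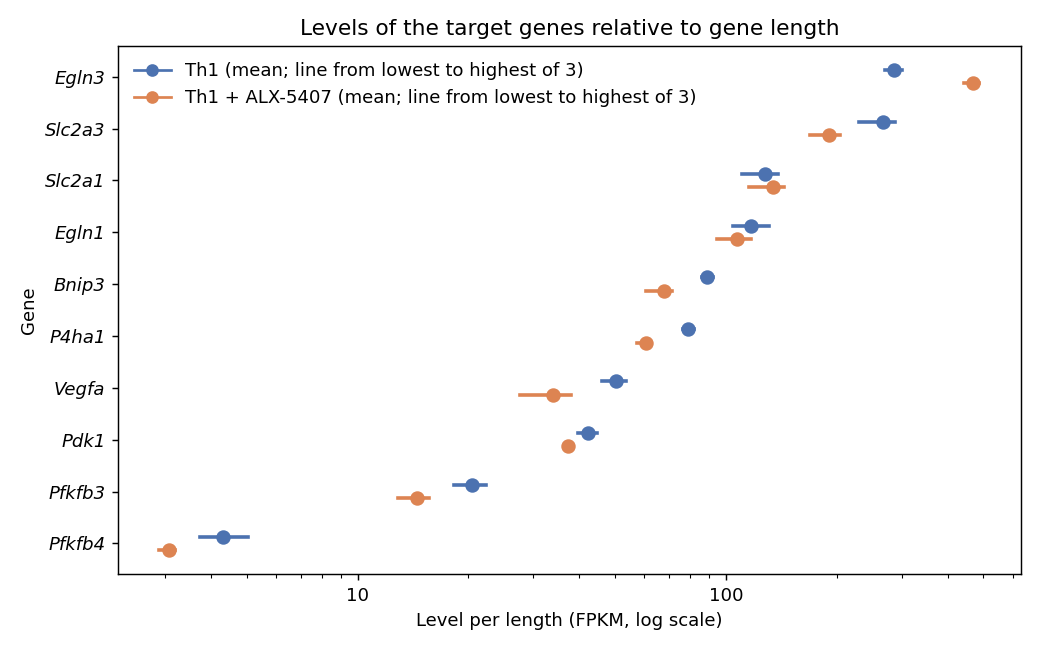
Level per length of the 10 genes (FPKM, log scale), as the mean (point) and the lowest to highest value (line) of 3 libraries of Th1 cells (blue) and 3 of ALX-5407-treated Th1 cells (orange). The genes run from Egln3 (286 and 470.0 FPKM) to Pfkfb4 (4.31 and 3.08 FPKM).

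A gene can have lower levels in a culture through fewer cells of the type that expresses it or through less RNA per cell, and these cannot be told apart in bulk samples. The labels call the replicates biological, but nothing in them says that they came from separate mice, so p-values measure the spread between these samples. An exact permutation test of 3 against 3 libraries cannot go below 0.1.

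The libraries of replicate 3 tended to hold the least of these transcripts. Replicate 3 was the lowest Th1 library for 6 of the 10 genes and the lowest ALX-5407-treated library for 9 of the 10, and for 6 genes it was lowest in both groups, as for 15.7% of all genes tested. Relative to the mean of the Th1 libraries, the mean log2 level of the 10 genes was 0.10, -0.01 and -0.08 in Th1 replicates 1, 2 and 3 and -0.19, -0.14 and -0.36 in the treated replicates. The 10 genes together took 0.499%, 0.472% and 0.438% of all counts in the Th1 libraries and 0.466%, 0.479% and 0.415% in the treated ones. Those shares overlapped. The log2 fold change was above 0 for 2 of the 10 genes, Egln3 and Slc2a1, and below 0 for 8.

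Slc2a1 and Slc2a3 encode GLUT1 and GLUT3, the facilitative transporters that bring glucose into activated T cells. Slc2a1 (ENSMUSG00000028645, chromosome 4, 119108711 to 119137983) had 486, 471 and 387 CPM in the Th1 libraries and 503, 505 and 405 CPM in the ALX-5407-treated libraries. The groups overlapped, with replicate 3 the lowest in each, and the means were 448 ± 53.6 and 471 ± 56.8 CPM (SD, n = 3 each; log2 fold change 0.07, standard error 0.0975). Without Th1 replicate 3 the log2 fold change was -0.04, so its sign rested on that library. Slc2a3 (ENSMUSG00000003153, chromosome 6, 122727809 to 122801640) had 2089.65, 2031 and 1668 CPM in the Th1 libraries and 1424, 1479 and 1225 CPM in the treated libraries. Each treated library lay below each Th1 library, and the mean was 1.40-fold lower, at 1376 ± 134 against 1929 ± 228 CPM (log2 fold change -0.49, standard error 0.0923).

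Within each library the ratio of Slc2a1 to Slc2a3, on the FPKM scale, does not depend on the scaling of the library. This ratio was 0.481, 0.479 and 0.479 in the Th1 libraries and 0.730, 0.706 and 0.684 in the ALX-5407-treated libraries. It hardly varied among the Th1 libraries, replicate 3 included, although the levels of both genes did. The CPM of the 2 transporters summed to 2377 ± 282 in Th1 cells and 1847 ± 189.6 in treated cells (SD, n = 3 each), 0.777 of the untreated sum, and Th1 replicate 3 (2055) lay close to the highest treated library (1984).

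Pfkfb3 and Pfkfb4 encode bifunctional enzymes that make and break down a sugar bisphosphate which activates phosphofructokinase, a control point of glycolysis. Pfkfb3 (ENSMUSG00000026773, chromosome 2, 11471433 to 11554077) had 169, 157 and 138 CPM in the Th1 libraries and 113, 119 and 97.3 CPM with ALX-5407. The groups were apart, and the mean was 1.41-fold lower in treated cells, at 109.7 ± 11.1 against 155 ± 15.7 CPM (SD, n = 3 each; log2 fold change -0.50, standard error 0.0892). Pfkfb4 (ENSMUSG00000025648, chromosome 9, 108991778 to 109032228) was the lowest of the 10 per length, as given above, with 24.5, 18.2 and 20.3 CPM in Th1 cells and 14.1, 15.4 and 15.5 CPM in treated cells. Its groups were also apart, with means of 21.0 ± 3.22 and 15.03 ± 0.804 CPM, a log2 fold change of -0.48 (standard error 0.116). The FPKM ratio of Pfkfb3 to Pfkfb4 was 4.45, 5.57 and 4.37 in Th1 cells and 5.18, 4.95 and 4.04 in treated cells. These ratios overlapped, so the 2 genes were lower by amounts that did not differ beyond the spread of the libraries.

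Pdk1 encodes a kinase that phosphorylates and inhibits pyruvate dehydrogenase and so limits the entry of pyruvate into the citric acid cycle. Pdk1 (ENSMUSG00000006494, chromosome 2, 71873224 to 71903858) had 329, 308 and 348 CPM in the Th1 libraries and 289, 295 and 288 CPM with ALX-5407. The treated libraries lay close together and below each Th1 library, with means of 291 ± 3.57 and 328 ± 20.1 CPM (SD, n = 3 each). The log2 fold change of Pdk1, -0.18 (standard error 0.0705) was smaller in size than those of the 6 genes that were called lower. It lay at the edge of the call: Pdk1 joined these 6 with DESeq2's size factors, upper quartile scaling, DESeq2, limma-voom, a mean of at least 50 counts, protein-coding genes alone, the replicate block and without Th1 replicate 2.

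Egln1 and Egln3 encode the prolyl hydroxylases that mark HIF alpha subunits in the presence of oxygen. Egln3 (ENSMUSG00000035105, chromosome 12, 54178981 to 54203860) had 798, 760.3 and 722 CPM in the Th1 libraries and 1272, 1299 and 1183 CPM in the ALX-5407-treated libraries. Each treated library was above each Th1 library, and the mean was 1.65-fold higher, at 1251 ± 60.8 against 760.1 ± 38.4 CPM (SD, n = 3 each; log2 fold change 0.72, standard error 0.0723). Egln1 (ENSMUSG00000031987, chromosome 8, 124908587 to 124949324) had 470.0, 419 and 375 CPM in the Th1 libraries and 399.5, 420.2 and 339 CPM in the treated ones. The groups of Egln1 overlapped, with means of 421 ± 47.5 and 386 ± 42.2 CPM (log2 fold change -0.13, standard error 0.0927). Over 15 alternatives, the log2 fold change of Egln1 ranged from -0.22 to -0.03. It was -0.22 without Th1 replicate 3, the only alternative in which Egln1 joined the genes called lower.

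The FPKM ratio of Egln1 to Egln3 was 0.436, 0.408 and 0.385 in Th1 cells and 0.233, 0.240 and 0.212 in ALX-5407-treated cells. The transcripts of Egln3 outnumbered those of Egln1 per length in each library, and more so in the treated libraries. Egln2, the family member that is not known as a HIF target, was at 45.9 ± 4.11 and 48.7 ± 1.63 CPM (SD, n = 3 each), with overlapping groups. The CPM of all 3 Egln genes summed to 1227 ± 89.9 in Th1 cells and 1686 ± 104 in treated cells, and of the 3 genes, Egln3 alone had a higher value in each treated library than in each Th1 library.

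**Figure D3:**
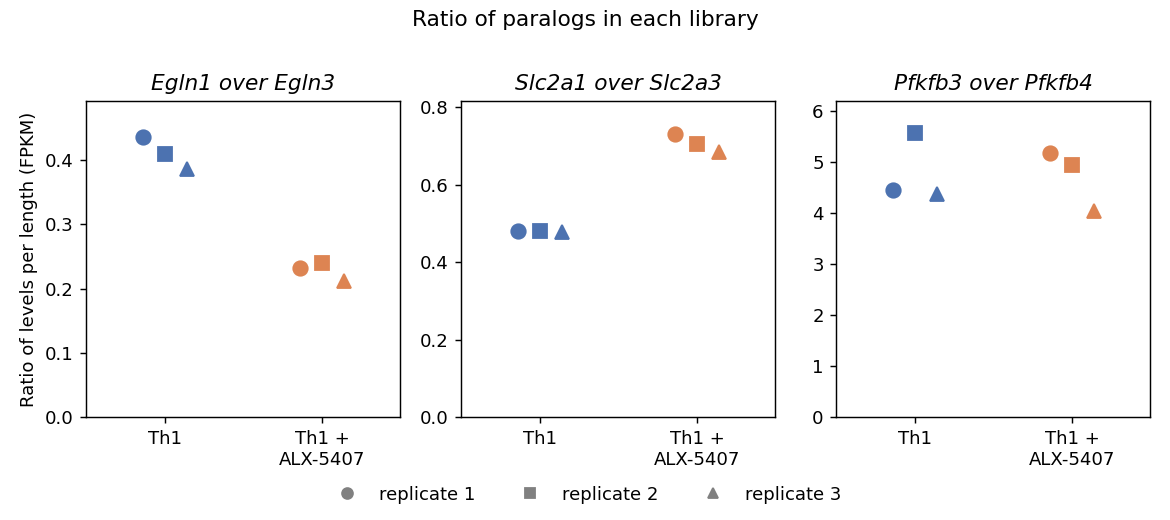
Ratio of the levels per length (FPKM) of 3 pairs of paralogs in each library, with symbols for replicates 1 to 3, Th1 in blue, ALX-5407-treated Th1 in orange, and y axes from 0. The ratio of Egln1 to Egln3 is lower and that of Slc2a1 to Slc2a3 higher in the 3 treated libraries, while the ratio of Pfkfb3 to Pfkfb4 overlaps between the groups.

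Bnip3 encodes a protein of the outer mitochondrial membrane that takes part in the removal of mitochondria by autophagy and in cell death. Bnip3 (ENSMUSG00000078566, chromosome 7, 138890836 to 138909519) had 195, 199.8 and 209 CPM in the Th1 libraries and 162, 162 and 138 CPM with ALX-5407. No treated library reached a Th1 library, and the mean was 1.31-fold lower, at 154 ± 13.9 against 201 ± 6.92 CPM (SD, n = 3 each; log2 fold change -0.39, standard error 0.0773). An antisense gene overlaps 22.3% of the exon bases of Bnip3, and it had 0 counts. Besides Bnip3, only Slc2a1 of the 10 genes shared exon bases with another gene, 3.00% of them with an antisense gene of 17.5 mean counts.

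P4ha1 encodes a catalytic subunit of the collagen prolyl hydroxylase, an enzyme of the endoplasmic reticulum that uses oxygen. P4ha1 (ENSMUSG00000019916, chromosome 10, 59323296 to 59373304) had 337, 315 and 322 CPM in the Th1 libraries and 253, 258 and 236 CPM in the ALX-5407-treated libraries. The spread in each group was small beside the gap, with means of 324 ± 11.4 and 249 ± 11.3 CPM (SD, n = 3 each; log2 fold change -0.38, standard error 0.0698).

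Vegfa encodes a secreted growth factor for blood vessels. Vegfa (ENSMUSG00000023951, chromosome 17, 46016993 to 46032369) had 229.6, 220.4 and 198 CPM in the Th1 libraries and 155, 163 and 118 CPM in the ALX-5407-treated libraries. The groups were apart, and the mean was 1.49-fold lower in treated cells, at 145 ± 23.7 against 216 ± 16.5 CPM (SD, n = 3 each; log2 fold change -0.57, standard error 0.101). Treated replicate 3 lay well below the others. By the size of its log2 fold change, Vegfa stood within the top 30.7% of all genes tested, Egln3 within the top 21.7%, and Slc2a1 within the top 88.7%.

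Of 23 listed HIF pathway regulators, which include the HIF subunits, the hydroxylases, the Vhl ubiquitin ligase and coactivators, 23 were tested, 5 rose and 6 fell in ALX-5407-treated cells at an adjusted p-value under 0.05 (21.7% and 26.1%). These shares lie close to the 24.5% and 23.2% of all genes tested that rose and fell, and the median log2 fold change was -0.06, against 0.01 over all genes tested. Hif1a, the main alpha subunit in T cells, had 1122, 1128 and 1152 CPM in the Th1 libraries and 1011, 944 and 1017 CPM in the treated libraries, and fell by 0.19 on the log2 scale (standard error 0.0682, adjusted p = 0.0264 from edgeR). This call was lost without treated replicate 1 or 2 (adjusted p = 0.0769 and 0.172 from edgeR) and with library totals alone (adjusted p = 0.109 from edgeR). Exons of other genes cover 8.11% of its exon bases, of which the expressed one, an antisense gene of 709.7 mean counts, covers 5.60%. Epas1, the other well-known alpha subunit, was at 0.714 FPKM in Th1 cells where Hif1a was at 192 FPKM, and its groups overlapped (3.79 ± 1.18 and 3.23 ± 0.305 CPM, SD, n = 3 each).

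Arnt, the partner of the alpha subunits, had 144, 150.0 and 131 CPM in the Th1 libraries and 85.7, 88.0 and 90.1 CPM in the ALX-5407-treated libraries, and fell by 0.69 on the log2 scale (standard error 0.0730, adjusted p = 1.25e-06 from edgeR). Vhl, the substrate receptor of the ligase that destroys hydroxylated HIF, went from 81.0, 83.7 and 63.4 CPM to 47.2, 50.9 and 42.8 CPM, also a fall of 0.69 (standard error 0.100, adjusted p = 2.98e-05 from edgeR). Neither gene had overlapping groups. Hif3a, an alpha subunit whose shorter forms restrain the others, fell by 0.73, Eloc, the elongin subunit that joins Vhl to its ligase, by 0.37, and Nedd8, which is attached to cullins, by 0.35 on the log2 scale (adjusted p from 7.80e-06 to 0.00177 in edgeR). Exons of another gene, with 382.8 mean counts, cover 14.6% of the exon bases of Nedd8.

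The 5 regulators that rose were Cul2, the cullin of the Vhl ligase, Ep300, a coactivator of HIF, the ubiquitin ligases Siah2 and Siah1b, which act on Egln proteins, and Arnt2, a relative of Arnt. Cul2 was higher by 0.50, Ep300 by 0.40, Siah2 by 0.49, Siah1b by 0.51 and Arnt2 by 1.51 on the log2 scale (adjusted p from 0.000169 to 0.0189 in edgeR). Arnt2 had only 27.7 counts on average, and its level was 0.410 ± 0.134 CPM in Th1 cells and 1.18 ± 0.0843 CPM in treated cells (SD, n = 3 each). The call for Siah1b was lost without Th1 replicate 1 (adjusted p = 0.0936 from edgeR) and without treated replicate 2 (adjusted p = 0.0734 from edgeR). Hif1an, the asparagine hydroxylase that blocks coactivator binding, did not pass the test, with 57.3 ± 0.995 and 58.6 ± 1.55 CPM and overlapping groups (adjusted p = 0.742 from edgeR), nor did Egln2 (adjusted p = 0.412 from edgeR).

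Among 52 other HIF target genes, 46 were tested, of which 4 rose and 27 fell (8.70% and 58.7%, against 24.5% and 23.2% of all genes tested), and 15 did not pass the test. The median log2 fold change of the 46 was -0.45, against 0.01 over all genes tested, and 32 of them had groups that did not overlap, as did 55.5% of all genes tested. Of the 46, 6 were lower and 0 higher DEGs in edgeR, against 6.68% and 3.36% of all genes tested. The list was written with earlier results of these libraries known and its genes are not independent of the 10 target genes, so its count is no separate evidence of a direction.

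Wsb1, a substrate receptor of ubiquitin ligases, had 281, 299 and 302 CPM in the Th1 libraries and 159.9, 152 and 157 CPM in the ALX-5407-treated libraries, and fell by 0.91 on the log2 scale (standard error 0.0688, adjusted p = 3.73e-08 from edgeR). Kdm3a, a histone demethylase, went from 253, 232 and 258 CPM to 145, 143 and 131 CPM (log2 fold change -0.83, adjusted p = 1.91e-07 from edgeR). Bnip3l, a relative of Bnip3 that also serves as a receptor for the removal of mitochondria, went from 526, 542 and 481 CPM to 302, 320 and 297 CPM (log2 fold change -0.75, adjusted p = 4.37e-07 from edgeR), and 1 pseudogene named after it held 7.29% of the summed counts, the largest such share among the named genes. In these 3 genes each treated library lay below each Th1 library, and the log2 fold changes were larger in size than that of Bnip3. Ankrd37, an ankyrin repeat protein, fell by 1.24 and Tmem45a, a transmembrane protein, by 1.71 on the log2 scale (adjusted p = 1.78e-07 and 1.20e-06 from edgeR). Their levels were 24.5 ± 0.585 and 6.12 ± 0.291 CPM in Th1 cells and 10.4 ± 1.21 and 1.86 ± 0.151 CPM in treated cells (SD, n = 3 each). Exons of other genes cover 26.4% of the exon bases of Ankrd37. Lrp2bp, with 26.8 mean counts, covers 22.7%, and Ufsp2, with 2190.5 mean counts, covers 3.70%.

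The 4 other targets that rose were Stc2, a secreted glycoprotein, Cited2, which competes with HIF for its coactivators, Ero1l, an oxidase of the endoplasmic reticulum, and Hmox1, which breaks down heme. Stc2 had 81.0, 76.9 and 62.1 CPM in Th1 cells and 138, 149.5 and 122 CPM with ALX-5407, and rose by 0.89 on the log2 scale (standard error 0.0984, adjusted p = 1.84e-06 from edgeR). Cited2 had 29.5, 29.1 and 24.1 CPM against 54.5, 54.2 and 45.3 CPM, and rose by 0.90 (standard error 0.0991, adjusted p = 1.91e-06 from edgeR). Ero1l went from 1466 ± 53.3 to 2070.1 ± 109 CPM (SD, n = 3 each; log2 fold change 0.50, adjusted p = 2.54e-05 from edgeR), and Hmox1 from 23.3 ± 2.09 to 30.3 ± 3.30 CPM (log2 fold change 0.38, adjusted p = 0.00644 from edgeR). Groups of these 4 genes did not overlap.

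**Figure D4:**
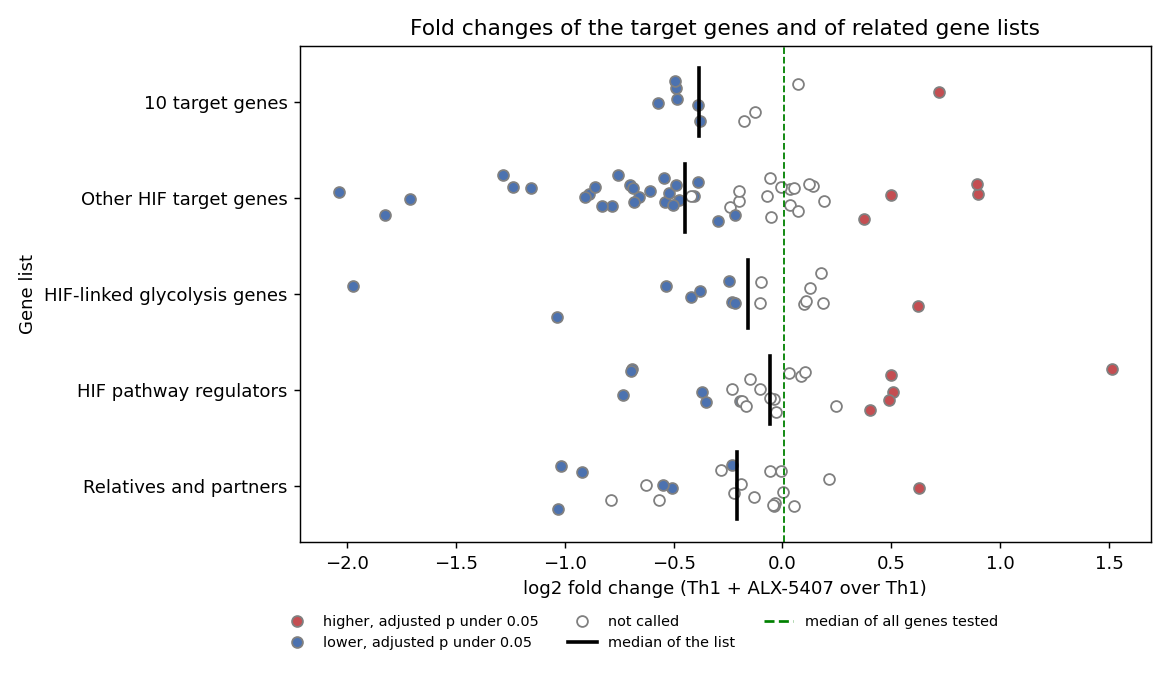
Log2 fold change (ALX-5407-treated Th1 over Th1) of each tested gene in the 10 target genes and in 4 related lists, with random vertical spread within a list. Red and blue points passed the test across all genes (adjusted p-value under 0.05) in the higher and the lower direction, white points were not called, black lines are list medians (-0.38 for the 10 genes and -0.45 for the other HIF targets), and the dashed line is the median of all genes tested (0.01).

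Of 16 HIF-linked glycolysis genes, all tested, 1 rose and 8 fell (6.25% and 50%, against 24.5% and 23.2% of all genes tested). Their median log2 fold change was -0.16, against 0.01 over all genes tested. Hk2, the hexokinase that traps glucose in the cell, had 319, 311 and 279.5 CPM in the Th1 libraries and 482, 470.3 and 449.9 CPM in the ALX-5407-treated libraries, and rose by 0.62 on the log2 scale (standard error 0.0733, adjusted p = 3.58e-06 from edgeR). In contrast, Eno2, an enolase, fell from 33.4 ± 0.920 to 16.3 ± 0.751 CPM (SD, n = 3 each; log2 fold change -1.04, adjusted p = 1.44e-07 from edgeR). Aldoc, an aldolase, fell by 0.54, Tpi1, the triose phosphate isomerase, by 0.42, and Pgk1, a kinase that makes ATP, by 0.38 on the log2 scale (adjusted p from 6.11e-05 to 0.000235 in edgeR). Gapdh was lower by 1.97 on the log2 scale (adjusted p = 8.76e-08 from edgeR), from 576, 402 and 326 CPM to 117, 126 and 88.9 CPM. Its level in Th1 cells was only 105 FPKM, where Pgk1 was at 1894 FPKM. The 3 pseudogenes named after Gapdh held 0.299% of the summed counts, as 3 named after Pgk1 held 0.280%. Pseudogenes under other names were not searched, so these shares can be too low. How reads shared with pseudogenes were counted is not given in the sources used here, so the values of Bnip3l, Gapdh and Pgk1 are uncertain. The call counts of this list depended on the processing: with library totals alone 4 rose and 5 fell, where 4484 genes rose and 3246 fell over all genes tested in place of 3910 and 3695, with the replicate block 3 rose and 8 fell (4071 and 3833 over all genes), and with 1 library left out between 1 and 3 rose and between 5 and 9 fell. The number that rose was 3 without Th1 replicate 1 or treated replicate 3, and the number that fell was 5 without Th1 replicate 1, treated replicate 2 or treated replicate 3. Counts under the alternatives took every entry with a listed name, so they can include an entry beyond the 16 genes. Over these entries the median of the main fit was -0.22, in place of -0.16.

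Relatives and partners of the 10 genes made up a list of 31, of which 22 were tested, 1 rose and 6 fell (4.55% and 27.3%, against 24.5% and 23.2% of all genes tested). Their median was -0.21 on the log2 scale, against 0.01 over all genes tested. The pyruvate dehydrogenase phosphatase Pdp2, which opposes the Pdk kinases, had 19.1, 18.8 and 18.3 CPM in Th1 cells and 27.2, 27.3 and 32.2 CPM with ALX-5407, and rose by 0.63 on the log2 scale (standard error 0.0967, adjusted p = 5.79e-05 from edgeR). Of the other Pdk kinases, Pdk3 (79.4 ± 4.01 and 79.5 ± 2.52 CPM, SD, n = 3 each) and Pdk2 (4.80 ± 0.263 and 4.98 ± 0.480 CPM) had overlapping groups and did not pass the test, and Pdk4, with 1.67 counts on average, was not tested. The CPM of all 4 Pdk genes summed to 412 ± 23.0 in Th1 cells and 375 ± 6.38 in treated cells. Pfkfb1 (5.12 ± 0.581 and 5.10 ± 0.529 CPM) and Pfkfb2 (6.68 ± 1.13 and 6.10 ± 0.567 CPM) also overlapped between the groups, and exons of other genes cover 19.5% of the exon bases of Pfkfb2. The CPM of the 4 Pfkfb genes summed to 187 ± 17.6 and 136 ± 9.97.

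Among sugar transporters related to Slc2a1 and Slc2a3, Slc2a6 went from 13.9, 10.7 and 11.3 CPM to 5.61, 6.35 and 5.65 CPM, which was a fall of 1.03 on the log2 scale (standard error 0.1404, adjusted p = 1.69e-05 from edgeR). Slc2a9, known as a urate transporter, fell by 0.51 on the log2 scale (adjusted p = 0.00121 from edgeR). Slc2a10, with 30.7 counts on average, fell by 1.02 (adjusted p = 0.0271 from edgeR), a call that was lost with DESeq2 (adjusted p = 0.0523) and without Th1 replicate 1, Th1 replicate 2, treated replicate 2 or treated replicate 3 (adjusted p = 0.0944, 0.0892, 0.0701 and 0.0629 from edgeR). P4hb, the protein disulfide isomerase that is also the partner subunit of P4ha1, had 1252, 1187 and 1032 CPM in the Th1 libraries and 775, 806 and 792 CPM in the ALX-5407-treated libraries. It fell by 0.55 on the log2 scale (standard error 0.0780, adjusted p = 2.56e-05 from edgeR), while P4ha1 was lower by a log2 fold change of -0.38. Nrp1, a co-receptor for Vegfa, went from 11.2 ± 0.0246 to 5.92 ± 1.22 CPM (SD, n = 3 each; log2 fold change -0.92, adjusted p = 9.10e-05 from edgeR).

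Markers of the cultured cells were present in both groups. Each list is given as summed CPM, led by the gene that added most CPM to the sum over all 6 libraries, which need not be the highest per length. The 8 T cell markers, led by Cd28, summed to 2804, 2891 and 2779 CPM in the Th1 libraries and 2693, 2708 and 2681 CPM in the ALX-5407-treated libraries, and the 5 Th1 markers, led by Il12rb2, to 760.0, 711 and 737 CPM and 696, 677 and 702 CPM. The near-constant T cell sum combined unlike genes: Cd28 rose by 0.52 on the log2 scale, while Cd4 fell by 0.46, Cd3d by 0.39, Cd3g by 0.35 and Trbc2 by 0.30 (adjusted p from 2.44e-05 to 0.0143 in edgeR), sizes like the median of -0.38 over the 10 target genes, and Cd3e, Trac and Lck did not pass the test, although Cd3e passed in 5 of 15 alternatives, among them the fit without Th1 replicate 3 (adjusted p = 0.000186 from edgeR). The call for Trbc2 was lost without treated replicate 3 (adjusted p = 0.0953 from edgeR), with a log2 fold change of -0.19 in place of -0.30. Of the Th1 markers, Tbx21 rose by 0.34 and Il18r1 fell by 0.76. Several markers of other cells moved with the groups. The 5 B cell markers, led by Pax5, summed to 8.84, 8.16 and 7.60 CPM and 14.4, 11.4 and 12.2 CPM, and 3 of them rose, of which Cd79a (adjusted p = 0.0460 from edgeR) kept its call in only 4 of 15 alternatives. The 3 platelet markers, led by Itga2b, summed to 3.72, 4.40 and 5.004 CPM and 9.12, 10.4 and 7.76 CPM, and 2 rose. For the 4 NK cell markers the sums were 3.04, 3.41 and 1.92 CPM and 5.58, 5.28 and 4.96 CPM, mostly from Eomes, the single tested one, which rose.

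In the opposite direction, the 7 macrophage and monocyte markers summed to 20.0, 21.0 and 15.5 CPM in Th1 cells and 5.38, 6.004 and 6.30 CPM with ALX-5407, mostly from Cd68, the single tested one, which fell. The 4 neutrophil markers summed to 71.3, 75.3 and 69.8 CPM and 31.6, 24.1 and 25.2 CPM, all from Ly6g, which fell, while S100a8, S100a9 and Csf3r had 0 counts in each library. The 5 stromal and endothelial markers, led by Pecam1, summed to 83.2, 82.4 and 75.2 CPM and 64.2, 66.5 and 63.1 CPM; Pecam1 fell, Pdgfrb rose, and Col3a1 and Cdh5 had 0 counts. Pdgfrb had only 13.2 mean counts, and its call was lost without Th1 replicate 2, Th1 replicate 3 or treated replicate 1 (adjusted p = 0.0597, 0.0734 and 0.0684 from edgeR). T cells themselves can express Cd28, Eomes, Cd68 and Pecam1. The 2 CD8 markers, led by Cd8b1, summed to 9.40, 9.25 and 9.59 CPM and 6.71, 7.56 and 8.87 CPM. Of these Cd8a fell, a call that was lost without treated replicate 1 (adjusted p = 0.0556 from edgeR), with a log2 fold change of -0.57 in place of -0.80. Sums of the 5 dendritic cell markers, led by Zbtb46, were 4.05, 4.72 and 4.87 CPM and 3.51, 3.73 and 2.99 CPM, with no call in 2 tested and Siglech at 0 counts. None of the 4 red cell markers had enough counts to be tested. Mitochondrial genes took 2.67%, 3.12% and 2.79% of counts in the Th1 libraries and 2.00%, 1.94% and 2.05% in the treated libraries. The part of these differences in the values of the 10 target genes was not tested.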

How the data were processed

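The analysis started from the table of gene counts the authors deposited. By the submitters' processing notes, reads were trimmed with fastp, aligned to mm10 with HISAT2 2.0.5 and counted with featureCounts 1.5.0-p3. How multi-mapping reads and strand were treated is not given in the sources used here. The labels give poly-T bead capture and the study's methods give rRNA depletion. All 6 columns, 3 for each group and of 30801800 to 36727800 counts, were used, with 0 unused.

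R 4.3.3 with edgeR 4.0.16 was used: filterByExpr (minimum count 10, minimum total 15), TMM scaling, a quasi-likelihood fit of treatment, and Benjamini-Hochberg adjustment over the 15938 genes tested. CPM use TMM-scaled library sizes, and FPKM divide by the gene length in the table. DESeq2 1.42.0 and limma 3.58.1 were alternatives. The 10 genes and the 4 related lists were chosen with earlier results of these data known. From each list, the text names up to 5 genes in each direction with the smallest p-values among those called, the main regulators and paralogs whatever their values, cell type markers and Slc6a9. Exon overlaps come from GENCODE M21 and promoter windows from RefSeq (GRCm38.p6). The code was tested on simulated counts. The protein identity of paralogs was not computed, as no protein sequences were available.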

Additional observations from a re-analysis of the deposited data

How the results depend on the processing

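Results were recomputed with DESeq2's size factors, upper quartile scaling or library totals alone, with DESeq2 or limma-voom, without a filter or with a mean of at least 50 counts, with protein-coding genes alone, with a replicate block, with a log2 fold change threshold and without each library in turn. No called result changed direction, but among genes that were not called the sign of the log2 fold change was not fixed, as for Slc2a1 (-0.04 to 0.18), Hif1an (-0.02 to 0.09), Epas1 (-0.43 to 0.03) and Pdk3 (-0.05 to 0.06). Egln3 was higher, and Vegfa, Slc2a3, Pfkfb3, Pfkfb4, Bnip3 and P4ha1 lower, under each alternative, with log2 fold changes of 0.67 to 0.78 for Egln3 and -0.65 to -0.44 for Vegfa. With the call on the adjusted p-value alone, the number of the 10 genes called lower was 6 or 7. Of the HIF-linked glycolysis genes, 1 rose in the fit of the report, against 4 with library totals alone and 2 each with DESeq2, limma-voom and no filter, and 8 fell, against 5 with library totals alone. With 1 library left out, 1 to 3 rose and 5 to 9 fell. The cause was not tested, and these counts can include a further entry that shares a name with a listed gene. When an absolute log2 fold change over 1 was also required, 536 genes were higher and 1064 lower, with 0 and 0 of the 10 target genes, 0 and 6 of the other HIF targets, 0 and 2 of the glycolysis genes, 1 and 0 of the regulators and 0 and 2 of the relatives and partners, which follows from the threshold. Nothing in the labels pairs libraries of the same replicate number, and the fit of the report did not pair them. Across genes, their deviations from the group means correlated at -0.0084, 0.0036 and 0.063. Such values cannot show whether the libraries shared a mouse or a batch. With the replicate block, 4071 genes were higher and 3833 lower, 7 of the 10 genes were lower, and 3 glycolysis genes rose. At this depth, genes of few counts, such as Arnt2 and Slc2a10 with 27.7 and 30.7 mean counts, were measured with low precision, and Pdk4 could not be tested.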
